A study of Mus musculus with 4 samples.

Results

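Small leucine-rich proteoglycans are secreted proteins built from repeats rich in leucine, most of which carry sulphated sugar chains. The group described here was lumican (Lum), decorin (Dcn), biglycan (Bgn), fibromodulin (Fmod), osteoglycin (Ogn), asporin (Aspn), osteomodulin (Omd) and Prelp, which makes 8 of the 18193 genes with a probe set of their own on the array. They were taken by gene symbol, with all 19 of their probe sets. The group was chosen on the measured spread of Lum and Dcn among the arrays of one structure, so that spread is a description here and was not tested.

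RNA came from 2 structures of the wild-type fetal mouse kidney of the outbred CD-1 stock at stage E15.5 (embryonic days, Theiler stage 23), sex unknown, captured by laser from stained frozen sections. The cortical collecting duct, part of the branched epithelium that grows from the ureteric bud, gave 1 array (replicate 3). The loop of Henle anlage, forerunner of that nephron segment, gave 3 arrays (replicates 1 to 3). About 50 sections of 5 kidneys went into each pool, RNA amplification took 2 rounds, and the labels do not say whether pools shared kidneys or litters, so p-values measure only the spread between these samples, which may be technical.

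In the extracellular matrix these proteins bind fibrillar collagen and regulate how fibrils assemble and how thick they grow, and several also bind growth factors of the TGF-beta family. They are made mainly by fibroblasts and other mesenchymal cells, and decorin in the kidney is known mainly from the interstitium. The family is divided into classes by sequence: decorin, biglycan and asporin are class I, lumican, fibromodulin, Prelp and osteomodulin class II, and osteoglycin class III.

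The RefSeq promoter table (build GRCm38.p6) held entries for 6 of the 8 genes, all but Lum and Dcn. The 250 bases before the start are printed for Ogn, Bgn and Fmod, the members with an entry that were bright enough to be tested, to show how different these upstream regions are. Capitals mark any of 3 motifs, each searched on both strands: a TATA box, a CCAAT box or a GC box, whose letters are given after the sequences.
Ogn (chr13:49607765-49608014, plus strand): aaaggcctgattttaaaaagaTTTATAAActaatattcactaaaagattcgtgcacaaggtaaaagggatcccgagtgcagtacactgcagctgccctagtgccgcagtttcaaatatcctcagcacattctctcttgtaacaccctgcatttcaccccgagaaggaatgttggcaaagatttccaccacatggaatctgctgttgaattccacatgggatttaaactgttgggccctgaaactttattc
Bgn (chrX:73483351-73483600, plus strand): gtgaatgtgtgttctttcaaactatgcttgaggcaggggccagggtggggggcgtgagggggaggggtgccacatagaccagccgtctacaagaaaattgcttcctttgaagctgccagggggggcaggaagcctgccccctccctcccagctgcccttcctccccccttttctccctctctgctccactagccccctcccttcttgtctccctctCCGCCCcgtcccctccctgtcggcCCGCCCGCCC
Fmod (chr1:134037004-134037253, plus strand): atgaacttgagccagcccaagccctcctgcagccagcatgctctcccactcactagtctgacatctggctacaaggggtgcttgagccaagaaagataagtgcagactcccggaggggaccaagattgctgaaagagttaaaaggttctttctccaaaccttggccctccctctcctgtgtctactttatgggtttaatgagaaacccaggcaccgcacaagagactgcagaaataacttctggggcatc
The Bgn region was rich in G and C (64.4%, against a median of 52.4% over 32851 promoter windows) and held 3 GC boxes, 2 of them overlapping, next to the start. A GC box, GGGCGG, was found in 32.7% of all windows. The Ogn region (42.0% G and C) held 2 overlapping TATA boxes on opposite strands far from its start, at positions -229 and -227, and this motif, TATAAA, was found in 12.4% of windows. The Fmod region (51.2% G and C) held none of the 3 motifs. Of the other members, the Aspn region held a TATA box and a CCAAT box and that of Prelp a CCAAT box, named by its letters, which 33.8% of windows held. These matches are descriptions of letters and not sites.

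Markers of the labelled structures went with the labels. Of 14 tested collecting duct markers, among them Gata3, 14 were higher in the duct than the anlage mean. Of 14 loop markers, such as Slc12a1 and Umod, 13 were lower. The median differences, duct minus anlage, were 2.74 and -2.83, beside -0.06 over all tested genes. Both lists were chosen with earlier results of these data known, so these counts are a description and no independent check. Signs of RNA quality differed within the anlage: the Gapdh signal near the 3' end over that near the 5' end, a ratio that is larger in shortened RNA, was 12.05 in the duct and 10.25, 54.08 and 26.02 in anlage arrays 1, 2 and 3. Anlage array 3 stood apart for many matrix genes and several smooth muscle genes, as described beside the members, and anlage array 2 for markers of the structures. The loop markers averaged 12.52, 11.34 and 12.24 on the log2 scale in anlage arrays 1, 2 and 3, and 9.2 in the duct. The collecting duct markers averaged 9.68, 10.82 and 9.7 in the anlage arrays and 12.58 in the duct, so that array 2 had less of its labelled structure's markers and more of the duct's. It was also the highest for markers of podocytes (11.15, 12.34 and 11.25) and of cap mesenchyme (10.99, 11.62 and 10.71). The part of this in the members' values in array 2 was not tested. Values are given below as the deposited signal, or as log2(normalized signal + 109.6), where 8.416 is the level under which a gene's mean was too dim to test. Scnn1g, a collecting duct marker with an anlage mean of 8.07, was tested only through its duct value of 12.18.

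Lumican by its only probe set, and decorin by the brightest of its 2, read far higher in anlage array 3 than in any other array. Decorin, the class I member that coats collagen fibrils and binds TGF-beta, had deposited signals of 3417.6 in the duct and 4304.6, 1119.8 and 30483.5 in anlage arrays 1, 2 and 3. On the log2 scale these were 11.76 in the collecting duct and 12.17, 10.53 and 14.80 in the anlage. Array 3 was the high one, array 2 the lowest of the 4, and the collecting duct value lay inside the anlage range. Array 3 stood 6.19-fold above the next anlage array. The anlage SD was 2.16 (n = 3), and 0.419% of the 12642 tested genes had a larger one, where the median was 0.46.

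Lumican, a class II keratan sulphate proteoglycan known from the cornea and from many connective tissues, differed most. Its deposited signal was 409.8 in the duct and 245.9, 724.2 and 27498.0 in anlage arrays 1, 2 and 3. The log2 values were 8.92 in the collecting duct and 8.12, 10.10 and 14.66 in the anlage, so that array 1 lay under the dim level while array 3 was 23.57-fold above array 2. This excess of array 3 over the higher of the other anlage arrays, 4.56 on the log2 scale, ranked 1 among the 12642 tested genes, and it ranked 2 with arrays scaled to a common median or with an offset of 16. The anlage SD of 3.35 (n = 3) ranked 3. With array 3 left out, the anlage SD was 1.41 for Lum and 1.15 for Dcn.

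**Figure D1:**
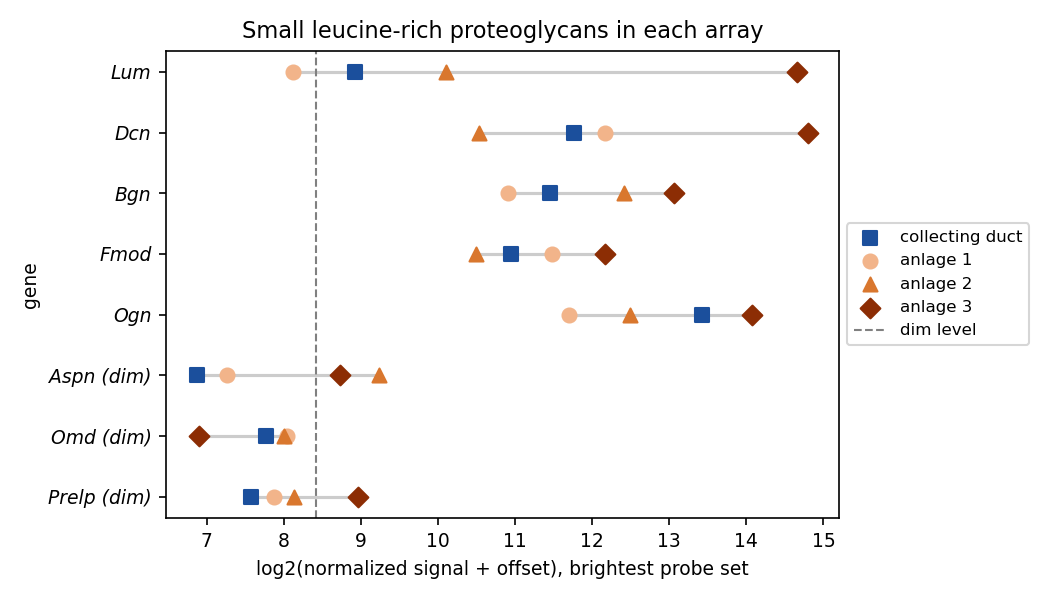
Values of the 8 genes in each array, as log2(normalized signal + offset) of each gene's brightest probe set; squares are the collecting duct array, the other symbols the 3 anlage arrays, and the dashed line is the dim level of 8.416. Lum and Dcn in anlage array 3 lie at 14.66 and 14.80, far to the right of their other values, while Aspn, Omd and Prelp lie around the dim level.

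Biglycan, the class I member closest to decorin, read higher in anlage arrays 2 and 3 than in the other arrays. Its brightest probe set read 2778.6 in the duct and 2004.0, 5771.8 and 8591.7 in the anlage arrays, or 11.45 against 10.91, 12.41 and 13.06 on the log2 scale. Array 1 was the lowest and array 3 the highest, and the collecting duct value lay between them. Scaled to a common median, array 2 became the highest. Asporin, the class I member without a sugar attachment site like that of its relatives, was dim: it read 7.4 in the duct and 66.3, 293.6 and 295.1 in anlage arrays 1, 2 and 3. On the log2 scale it reached 9.24 and 8.73 in anlage arrays 2 and 3, stood at 6.87 in the collecting duct, and was not tested because its mean lay under the dim level.

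Fibromodulin, a class II collagen-binding protein, varied less. Its brightest probe set read 1957.6 in the duct and 2813.6, 1074.8 and 4409.4 in the anlage arrays. The log2 values were 10.95 against 11.48, 10.49 and 12.16, with array 3 highest, array 2 lowest and the collecting duct inside the anlage range. Prelp, a class II protein found at basement membranes, read 79.9 in the duct and 181.2, 91.4 and 360.1 in the anlage arrays. Only array 3, at 8.96 on the log2 scale, lay above the dim level. Osteomodulin, a class II protein of mineralised tissue, read 109.8 against 224.3, 77.8 and 9.8, all 4 under the dim level after normalization, where values have no dependable order.

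Osteoglycin, the class III member also called mimecan, was bright in every array. Its brightest probe set read 10374.3 in the duct and 3217.8, 6183.2 and 18089.9 in anlage arrays 1, 2 and 3. The log2 values were 13.43 against 11.70, 12.49 and 14.07. The collecting duct value lay above anlage arrays 1 and 2 and below array 3, a higher place than that of any other tested member.

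By the brightest probe set, 6 of the 8 genes were highest in anlage array 3 among the anlage arrays, where 28.3% of all 18193 genes were. The count was 5 with arrays scaled to a common median, beside 20.8% of genes, and 7 in the deposited values, beside 27.6%. Since Lum and Dcn chose the group, the count without them is the one to read: it was 4 of 6, or 3 and 5 in these other scalings. By probe set, over all 8 genes, 15 of 19 were highest in array 3, beside 25.9% of 34945 probe sets with 1 symbol. These 15 include every probe set of Lum and Dcn, and 3 of the 19 lay under the dim level in every array. By the brightest probe set, array 3 exceeded both other anlage arrays by 1 or more on the log2 scale for Lum and Dcn, which chose the group. Of the other tested members only Ogn did so by that probe set, beside 1.65% of tested genes. The excess was 0.60 for the second probe set of Dcn and 0.46 for that of Ogn. In pools of captured cells, more cells of a type and more RNA per cell cannot be told apart.

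The probe sets of a gene did not always follow each other across the arrays. From anlage array 1 to array 2, the brightest probe set of Dcn differed by -1.64 on the log2 scale and the other by 2.22. Array 3 lay above array 1 by 2.63 and 2.82, and above array 2 by 4.27 and 0.60, so the large distance of array 3 from every other array was seen with 1 of the 2 probe sets. In Ogn, the brightest differed by 0.80 from array 1 to array 2 and the other by -1.70, although the 2 read almost alike in the duct (10374.3 and 10382.2) and in anlage array 1 (3217.8 and 3264.8). The arrays where the Ogn probe sets parted, anlage arrays 2 and 3, were those with the higher Gapdh ratios of 54.08 and 26.02. The part of RNA quality in this was not tested.

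Bgn had 1 probe set that varied little, with log2 values from 11.17 to 11.85 over the anlage arrays. Its other probe sets were higher in array 3 than in array 1 by 2.16 and 2.11. All 6 probe sets of Fmod were highest in array 3, by 0.03 to 1.46 over the next anlage array. Of these, 5 have names ending in _x_at, which on this array type marks probes that may match other transcripts too.

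**Figure D2:**
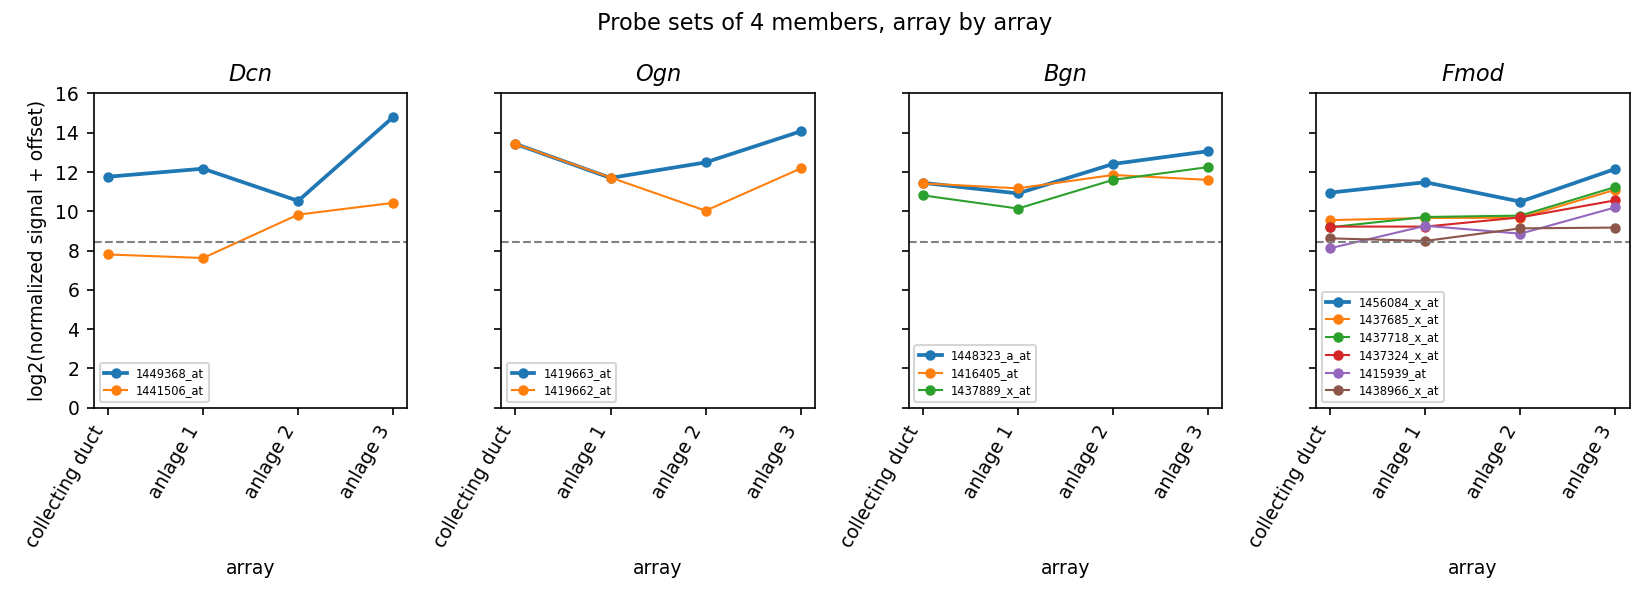
log2(normalized signal + offset) of every probe set of Dcn, Ogn, Bgn and Fmod in the 4 arrays; each line joins the values of 1 probe set, the thick line is the brightest, and the dashed line is the dim level. The probe sets of Dcn and of Ogn part between anlage arrays 1 and 2, where 1 line goes down and the other up, and most lines end highest in anlage 3.

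The comparison of the structures asks which genes mark the collecting duct or the loop anlage at this stage, and no member passed its test. Biglycan and fibromodulin lay lower in the duct, and osteoglycin lay higher. Bgn stood at 11.45 in the duct, with an anlage value of 12.13 ± 1.11 (SD, n = 3), a difference of -0.68 ± 0.88 (SE, limma, adjusted p = 0.9999). Fmod stood at 10.95 against 11.38 ± 0.84, a difference of -0.43 ± 0.75 (SE, limma, adjusted p = 0.9999). Ogn stood at 13.43 against 12.75 ± 1.20, a difference of 0.68 ± 0.92 (SE, limma, adjusted p = 0.9999). These 3 differences, by the brightest probe sets, were smaller than the anlage SD. In Fmod, the probe set without the _x_at ending differed by -1.32 (anlage SD 0.69) and another by -1.05 (anlage SD 0.87). The remaining probe sets of Fmod and Bgn differed by less than their anlage SD. The other probe set of Ogn read 13.43 in the duct, above all 3 anlage arrays (11.72, 10.03 and 12.18), and its difference of 2.13 was larger than the anlage SD of 1.13.

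For Lum and Dcn, chosen for that spread, the differences are given without a p: -2.03 ± 2.28 and -0.74 ± 1.51 (SE). By the brightest probe set, the collecting duct value lay inside the anlage range for all 5 tested members, where 58.4% of tested genes had such a value. Other probe sets differed in this: 4 of the 6 of Fmod had their duct value below all 3 anlage arrays, and 1 of the 2 of Ogn had it above them. It lay below all 3 anlage arrays for Aspn and Prelp among the dim members, where 24.3% of tested genes did, and inside the range for Omd. limma called 0 of the 12642 genes at an adjusted p under 0.05, which is 0%, and 431 (3.41%) at an unadjusted p under 0.05, none of them a member.

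These differences depended on single arrays. Without anlage array 3, the difference of Lum was -0.18 in place of -2.03, that of Dcn turned to 0.40, that of Bgn became -0.21, that of Fmod -0.04 and that of Ogn 1.31. The median over the 5 tested members moved from -0.68 to -0.04, beside -0.06 and -0.03 over all tested genes. All 5 also passed the filter on dim genes without that array. The other anlage arrays moved values as well: without array 1 the difference was -3.64 for Lum, -1.35 for Bgn and 0.16 for Ogn, and without array 2 it was -1.69 for Dcn and -0.81 for Fmod.

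**Figure D3:**
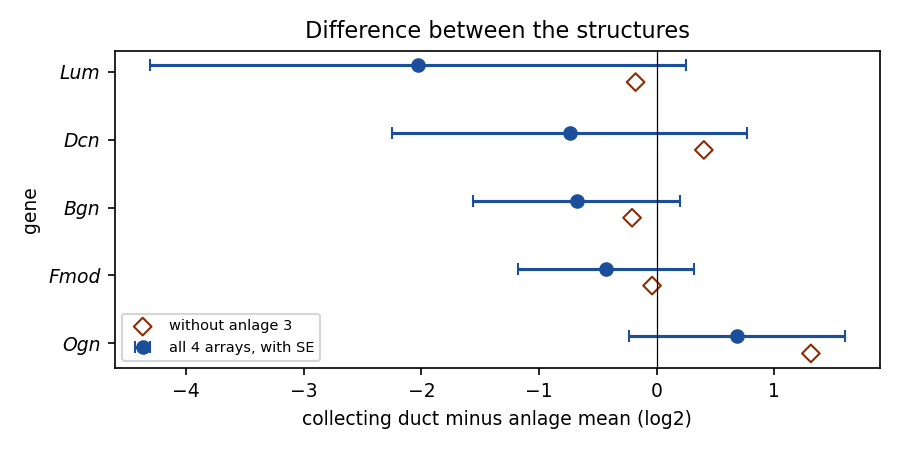
Difference between the collecting duct array and the anlage mean on the log2 scale for the 5 tested members; filled circles use all 4 arrays with bars of 1 SE from limma, and open diamonds leave out anlage array 3. Without array 3, Lum moves from -2.03 to -0.18 and Dcn from -0.74 to 0.40.

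The genes of this family lie in runs. In the RefSeq gene table of assembly GRCm38.p6, Dcn, Lum, Kera and Epyc are neighbours, as are Ecm2, Aspn, Omd and Ogn, and Optc, Prelp and Fmod, with no other protein-coding gene between them. Kera encodes keratocan, a corneal class II relative, and Epyc epiphycan, a class III protein of growth cartilage. All 4 genes of the first run were highest in anlage array 3, where 28.3% of all 18193 genes were. Since Lum and Dcn chose the group, this count is only a description. Kera read 10.3 in the duct and 20.9, 56.0 and 551.0 in the anlage arrays, and Epyc read 6.7 against 108.5, 98.7 and 443.2. Both lay above the dim level in array 3 only, at log2 values of 9.47 and 9.21, and neither was bright enough on average to be tested.

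The run of Optc, Prelp and Fmod was also highest in array 3 for 3 of 3 genes, but Optc and Prelp lay above the dim level in no other array. Optc, opticin of the eye, read 47.7 in the duct against 154.6, 123.1 and 275.8. The run of Ecm2, Aspn, Omd and Ogn was mixed, with Ogn highest in array 3 and Ecm2 and Aspn in array 2, while Omd lay under the dim level throughout and has no order. In the deposited values Aspn was marginally higher in array 3 than in array 2. Of the 6 nearest protein-coding genes with a probe set beside the runs, 1 was highest in anlage array 3, beside 28.3% of all 18193 genes. It was Ccer1, which was too dim to order. Atp2b4, beside Optc, also lay under the dim level in every anlage array. Btg1, beside Dcn, read 14.11 in array 3 on the log2 scale and 14.45 in array 2, and Ccer1, beside Epyc, stayed under the dim level in all 4 arrays.

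**Figure D4:**
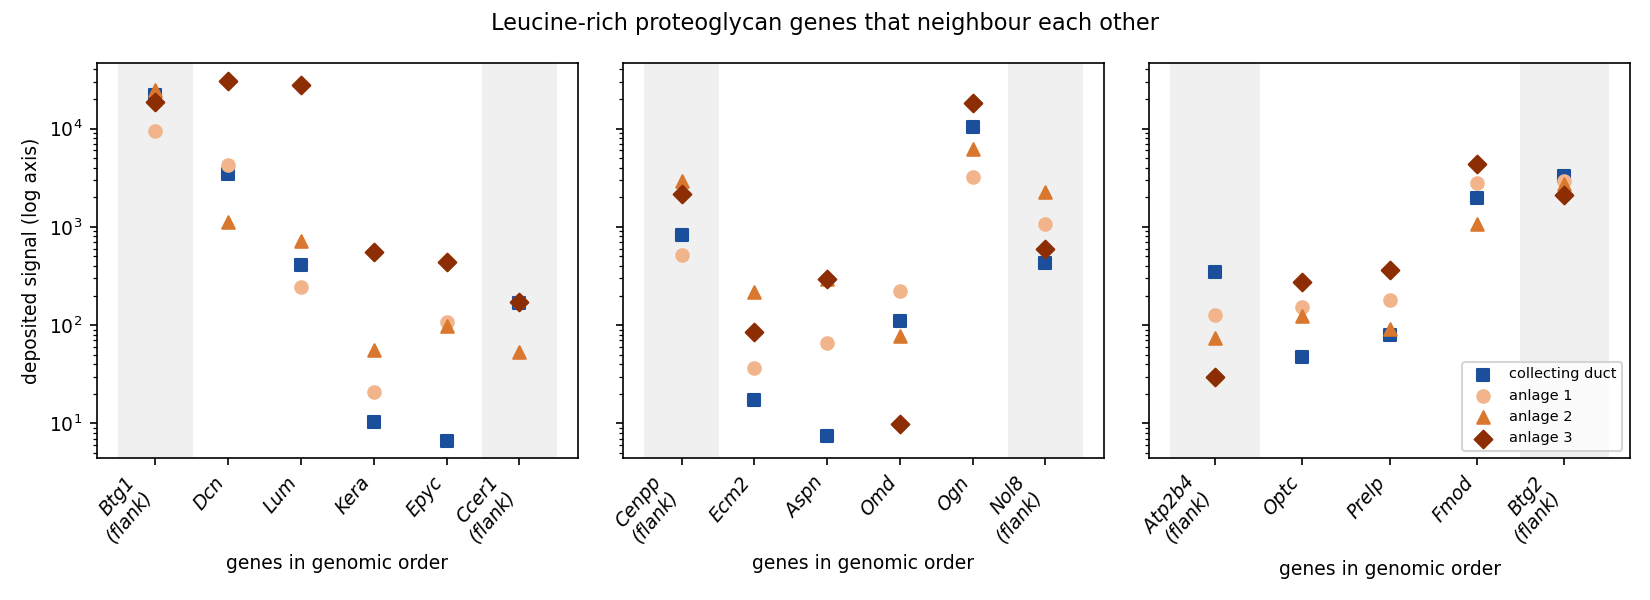
Deposited signal (log axis) of neighbouring leucine-rich proteoglycan genes in genomic order, with the nearest other protein-coding gene with a probe set on each side shaded; symbols are the 4 arrays. Levels of different genes come from different probes and cannot be ranked; within each of Dcn, Lum, Kera and Epyc the dark diamond of anlage array 3 is the highest symbol.

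Of 10 further leucine-rich proteoglycan genes outside the group, 8 had a probe set and 2 were tested. Podn (podocan) stood at 10.17 in the collecting duct and 10.71, 9.93 and 10.36 in the anlage arrays. Nyx (nyctalopin) stood at 9.93 against 8.49, 9.0 and 6.98, the lowest being array 3, under the dim level. Its difference of 1.77 ± 0.85 (SE) did not pass (limma, adjusted p = 0.9999). The anlage mean of Nyx, 8.16, lay under the dim level too, so it was tested only through its duct value. By the brightest probe set, 3 of the 8 were highest in array 3, namely Kera, Epyc and Optc. Chad and Chadl stayed under the dim level in every array.

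The collagens that these proteins bind were also high in anlage array 3. Of 13 tested genes for fibrillar collagens and collagens that associate with fibrils, 12 were highest there among the anlage arrays, beside 27.0% of all tested genes, and 11 with arrays scaled to a common median, beside 14.7%. In 7 of the 13 array 3 exceeded both others by 1 or more, as in 1.65% of tested genes. All 13 were bright enough to be tested without array 3. Col14a1, a collagen on the surface of fibrils, stood at 11.28 in the collecting duct and 10.15, 12.00 and 14.38 in the anlage arrays, and Col6a2 at 11.88 against 10.94, 12.16 and 14.04. The exception was Col11a1, at 9.09 in array 3 and 10.46 in array 1. Between the structures 0 of 13 passed, with a median difference of -0.32.

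Enzymes that build the sugar chains lay near the background. Of 24 tested genes for glycosaminoglycan synthesis, 8 were highest in array 3, beside 27.0% of all tested genes. With arrays scaled to a common median it was 3, beside 14.7%. In 0 of the 24 array 3 exceeded both other anlage arrays by 1 or more, beside 1.65%. None passed between the structures (0 of 24, with a median difference of 0.01). Dsel, an epimerase that makes dermatan sulphate, stood at 12.74 in the duct, with an anlage value of 11.55 ± 0.70 (SD, n = 3). Chst2, a sulphotransferase, stood at 7.54 against 9.34 ± 1.13, and Papss2, which makes the sulphate donor, at 10.27 against 11.33 ± 0.15.

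Proteases known to cut these proteins or the wider group of matrix proteoglycans included 9 tested genes, of which 0 passed between the structures. Without array 3, Htra1 and Adamts4 would have been too dim to test, and of the other 7 genes 3 were highest in array 3. The share among all 12379 genes bright enough without array 3 was 26.1%. With arrays scaled to a common median, 5 of 9 tested proteases were highest in array 3, beside 14.7% of tested genes. That count was not limited to genes bright enough without array 3. Htra1, a secreted serine protease, stood at 6.95 in the collecting duct and 7.46, 9.83 and 11.68 in the anlage arrays, and Adamts4, an aggrecanase, at 7.0 against 8.21, 8.88 and 10.14. Both collecting duct values lay under the dim level. Among 18 tested genes for growth factors and receptors that the family binds, 0 passed. Of the 17 bright enough without array 3, 6 were highest there. Scaled to a common median, 5 of 18 tested genes of this list were. Kdr, a VEGF receptor of endothelium, differed most, by -2.02 ± 0.73 (SE, limma, adjusted p = 0.9999).

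Several markers of smooth muscle were also high in anlage array 3. Of 11 tested muscle markers, 3 (Myh11, Actg2 and Lmod1) passed the filter on dim genes only through their value in array 3, so their being high there is no support. Of the other 8, 5 were highest in anlage array 3, beside 26.1% of the genes bright enough without array 3. In 4 of the 8 array 3 exceeded both other anlage arrays by 1 or more, beside 1.37% of the genes bright enough without array 3. The mean log2 value of these 8 was 9.54 in the duct and 10.79, 9.76 and 11.79 in anlage arrays 1, 2 and 3. Myh11, the smooth muscle myosin heavy chain, stood at 7.87 in the collecting duct and 8.22, 9.12 and 13.13 in the anlage arrays. Actg2, enteric smooth muscle actin, stood at 7.78 against 8.84, 8.07 and 13.35, and Acta2 at 12.57 against 13.33, 13.39 and 16.17. Sarcomeric actins differed from these: Actc1, which is among the 5, was high in arrays 1 and 3 (14.01 and 14.24) and Acta1 in array 1 (13.06). Des (9.97, 9.41 and 9.18 in anlage arrays 1, 2 and 3) and Smtn (9.25, 9.70 and 9.66) were not highest in array 3. Of the 12 muscle markers on the array, 5 lay under the dim level in the collecting duct array, 4 and 3 in anlage arrays 1 and 2, and 1 in array 3.

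Interstitial stroma markers were split. Of 30 tested, 16 were highest in array 3, beside 27.0% of all tested genes. With arrays scaled to a common median it was 13, beside 14.7%. In 5 of the 30 array 3 exceeded both others by 1 or more, as in 1.65% of tested genes. The list averaged 12.03 in the duct and 11.82, 12.03 and 12.72 in the anlage arrays. Tbx18, a transcription factor of the mesenchyme around the ureter, stood at 9.97 in the collecting duct and 7.84, 9.73 and 13.92 in the anlage arrays. Foxd1, the transcription factor that defines cortical stroma, did not follow, at 13.75 against 13.94, 12.84 and 13.38. Col1a1, Col1a2 and Col3a1 stand in both the stroma and the collagen list. The part of these cells in the values of Lum and Dcn was not tested.

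For the remaining cell types, counts of markers highest in array 3 are over genes bright enough without it, beside 26.1% of all such genes. They were 5 of 15 for endothelium and 3 of 9 for macrophages and leukocytes. Erythroid markers gave 0 of 3, podocyte markers 0 of 7 and cap mesenchyme markers 1 of 9. With arrays scaled to a common median, the endothelial count was 2 of 15 and that of macrophages and leukocytes 5 of 11. The share of all tested genes was then 14.7%, and these scaled counts were also over tested genes. List means over the tested genes in anlage arrays 1, 2 and 3 were 10.0, 10.83 and 10.76 for endothelium and 9.16, 9.44 and 9.21 for macrophages and leukocytes, with 9.42 and 8.96 in the duct. Of the loop markers 2 of 14 (5 with arrays scaled to a common median) and of the collecting duct markers 2 of 14 were highest in array 3.

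**Figure D5:**
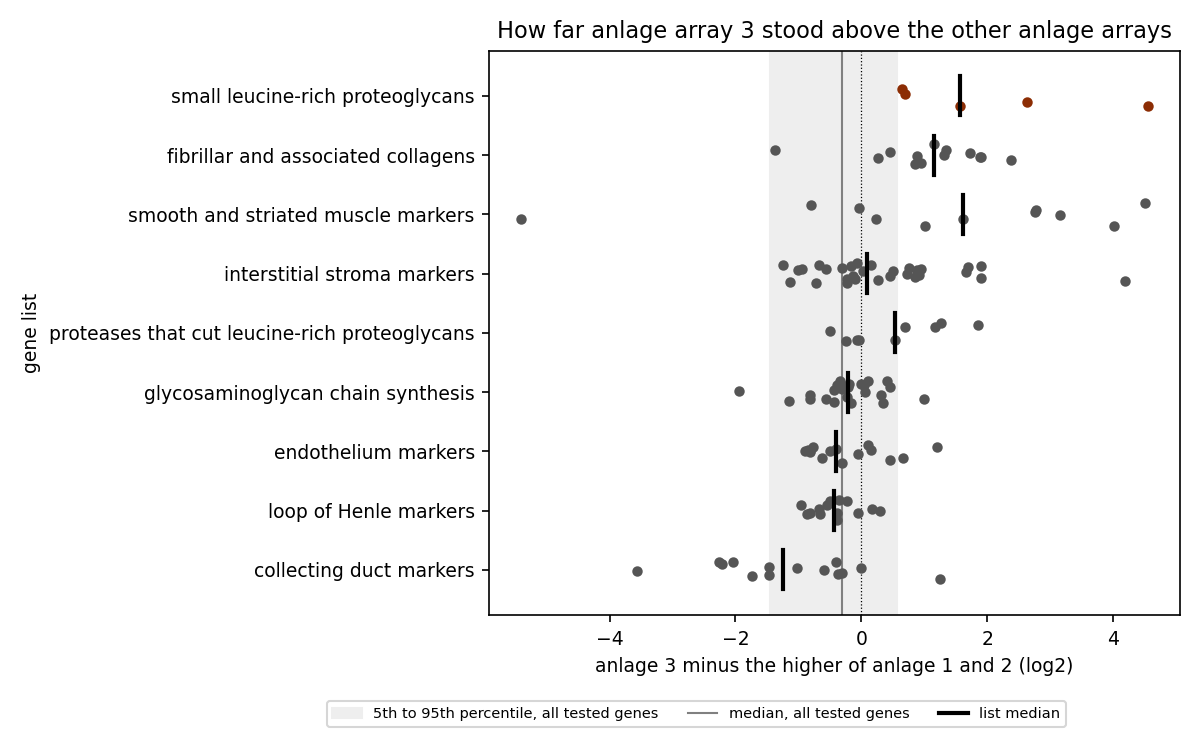
Each dot is a tested gene, placed by its value in anlage array 3 minus the higher of anlage arrays 1 and 2 (log2); rows are gene lists, black bars list medians, and the grey band spans the 5th to 95th percentile of all tested genes. The members' median is 1.57 with Lum and Dcn, which chose the group, included. Bgn, Fmod and Ogn lie at 0.65, 0.69 and 1.57. The median is 1.16 for the collagens and 1.61 for the muscle markers (0.92 without the 3 that passed the filter only through array 3). Glycosaminoglycan synthesis genes lie around -0.22, near the median of all tested genes of -0.31.

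Likeness to Lum and Dcn was measured over the 4 arrays as the root mean square distance between log2 values, each gene centred on its own mean. Nearest to Lum were Car3 (0.58), Myh11 (0.59), Tbx18 (0.68), Sulf1 (0.94) and Col9a1 (1.00), where the median distance of all tested genes was 2.49. Car3, carbonic anhydrase 3, stood at 10.92 in the collecting duct and 8.58, 10.97 and 15.44 in the anlage arrays. Nearest to Dcn were Cpxm2 (0.16), Rgs17 (0.41), Plcxd2 (0.48), B3gnt9 (0.49) and Pdlim3 (0.53), with a median of 1.62. Of these genes, Myh11, Cpxm2, Rgs17, Plcxd2 and B3gnt9 passed the filter on dim genes only through array 3, and below the dim level an order is not dependable. Among the 12379 genes bright enough without array 3, the nearest to Dcn were Pdlim3 (0.53), Myocd (0.55), Matn2 (0.62), Hspb8 (0.70) and Smoc1 (0.76), and Col14a1 (1.04) was the fifth for Lum. Pdlim3 stood at 9.04 in the collecting duct and 9.82, 9.13 and 12.12 in the anlage arrays. Lum and Dcn lay 1.64 apart, with anlage array 2 low for Dcn and intermediate for Lum. Dcn ranked 67 by distance from Lum. In the other direction Lum ranked 6787 by distance from Dcn, slightly beyond the median of 1.62. The likeness uses the same values that chose Lum and Dcn, so it is a description, and it says nothing of shared function.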

How the data were processed

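Laser-captured samples of E15.5 mouse kidney were measured on 1 collecting duct and 3 loop anlage arrays. The authors deposited intensity values per probe set, not log-transformed, from GCOS (named in the submitters' processing notes, version: not given in the sources used here). The authors' values had a trimmed mean of 1500 in each array. Here they were quantile normalized, log2(signal + 109.6) was taken (109.6 is the 25th percentile), 64 control probe sets were left out, and the brightest probe set with 1 symbol was used for a gene. Genes with a mean under 8.416 (40th percentile) were not tested, which left 12642. Folds of dim genes are therefore understated. limma 3.58.1 in R 4.3.3 (lmFit, eBayes with trend, two-sided, Benjamini-Hochberg over all genes, threshold 0.05) compared the structures; the lone collecting duct array is assumed to vary like the anlage arrays (2 residual and 4.04 prior degrees of freedom). An exact permutation test could not give a p below 0.25. The number of arrays limits precision. The fit was tested on simulated data.

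The members and 14 other lists were chosen with earlier results of these data known. Named were all members, up to 4 genes of a list with the largest difference, its most variable gene, further leucine-rich proteoglycans and the 5 genes nearest to Lum and Dcn. Not all of these are printed. Flanking genes, Foxd1, Col11a1, Gata3 and the closing part's genes were picked after seeing their values. Symbols follow the platform table, and all 8 members matched RefSeq by Entrez number. Counts without Lum and Dcn, or over genes bright enough without anlage array 3, were added after seeing the data. Alternatives changed normalization, offset, probe set choice, filter, trend and arrays.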

Additional observations from a re-analysis of the deposited data

How the results depend on the processing

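Under all 10 alternatives 0 members were called. Over all genes 0 were called by limma except without anlage array 2, which gave 14, so that leaving out 1 anlage array gave 0 to 14 calls, with 1 residual degree of freedom left. At an unadjusted p under 0.05 there were 192 genes without anlage array 3, 1401 without array 1 and 647 with no filter on dim genes, in place of 431. Differences of Lum, Bgn, Fmod, Aspn and Prelp were negative and that of Ogn positive under every alternative, while those of Dcn and Omd changed sign without anlage array 3, to 0.40 and -0.26. Scaling to a common median moved the median difference of all genes from -0.06 to -0.24, and under it the differences of Ogn and Bgn were 0.26 and -0.99. The mean of all probe sets gave -1.12 for Dcn, -0.72 for Fmod and 1.40 for Ogn. The dim Aspn differed by -1.54, and by -3.19 with an offset of 16. Between 5 and 7 of the 8 genes were highest in anlage array 3. Among settings with all arrays its excess was 4.40 to 5.07 for Lum and 2.44 to 3.39 for Dcn. No paired analysis was possible because the structures share only 1 replicate number. Signal near the dim level limits Aspn, Omd and Prelp.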

Other observations

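Genes other than members with the largest excess of anlage array 3 over both other anlage arrays were Actg2 (4.51 on the log2 scale), Car3 (4.48), Tbx18 (4.19), Myh11 (4.01), Ecrg4 (3.53), Cadps (3.30), Myocd (3.16), Foxa1 (2.92), Cpxm2 (2.88), Acta2 (2.78) and Myl9 (2.76). Myocd is the transcriptional coactivator of smooth muscle genes and Foxa1 a forkhead factor of endoderm and urothelium. Of these 11 genes, 4 (Actg2, Myh11, Cadps and Cpxm2) passed the filter on dim genes only through array 3, 5 stand in the muscle list and 1, Tbx18, stands in the stroma list. Cnn1, smooth muscle calponin, was too dim on average to be tested and stood at 9.85 in array 3 against 6.92 in the duct and 6.87 and 6.88 in the other anlage arrays.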
